A study of Mus musculus with 6 samples.

Results

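*Pygo2*, *Pygo1* and 8 genes that act beside them at the nuclear end of canonical Wnt signalling were described across RNA-seq libraries of *Armc5* KO and WT neural progenitor cells (NPCs). The 10 genes were found by symbol among 53060 genes or merged loci that carried a name. *Pygo2* was picked because it differed between KO and WT NPCs in an earlier fit of these counts, and the other 9 for their known place in the same nuclear complex. The KO and WT values below are therefore a description, and no p-value is printed for any of the 10 genes. Where calls of a test across all genes are counted, nothing is read from them for the 10.

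In canonical Wnt signalling, a Wnt ligand binds Frizzled and LRP receptors, the destruction complex stops degrading beta-catenin, and beta-catenin (*Ctnnb1*) enters the nucleus. There it binds the DNA-bound TCF/LEF factors (*Tcf7*, *Tcf7l1*, *Tcf7l2* and *Lef1*). BCL9 and BCL9L are adaptors that link beta-catenin to the Pygopus proteins PYGO1 and PYGO2, which carry a PHD finger that reads methylated lysine of histone H3. *Axin2* is a target gene of the pathway and codes for a scaffold of the destruction complex, so its RNA is widely used as a readout of the signal. In the forebrain the pathway is known for its part in the growth and patterning of progenitors.

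The 3 KO NPC libraries were made from cells of *Armc5*(-/-) embryos and the 3 WT NPC libraries from cells of WT embryos. All cells came from e13.5 fetuses and were grown as neurospheres with EGF at 20 ng/ml to passage 2. The methods of the study name dissected ganglionic eminences as the source, but its results section names brains and spinal cords. The labels give a mixed background of 129 sv and CD1, whereas the methods of the study name crosses of CD1 and C57BL/6. No Cre driver is named, so the deletion is not tied to one cell type. The study calls the libraries 3 pairs of biological replicates, but no label says which libraries shared a litter or an embryo.

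The KO NPC libraries held 52995791 to 85170379 counts in named loci and the WT NPC libraries 66018919 to 73445736 counts, written below as CPM (counts scaled to a common library total), on library sizes corrected with TMM factors. *Armc5*, the deleted gene, had 84, 119 and 43 counts in KO NPCs, against 1966, 2114 and 1797 counts in WT NPCs. All 18 neural progenitor markers listed passed the filter on low counts, and their CPM summed to 4583 to 6017 in KO NPCs and 5381 to 6128 in WT NPCs. KO NPC 3 stood apart, being the highest library for 34.9% and the lowest for 36.8% of the 19073 genes tested. In it, *Mbp* (myelin) was at 518 CPM and *Gfap* (astrocytes) at 276 CPM, against at most 84.5 and 47.9 CPM in the other libraries. The 16 oligodendrocyte lineage markers listed, of which 15 passed the filter, summed to 6163 CPM in KO NPC 3 and to 2851 to 4670 CPM in the other 5 libraries. The 8 astrocyte markers summed to 2992 CPM in KO NPC 3 and to 862 to 1397 CPM elsewhere. Of 8 microglial markers 2 passed the filter, and all 8 together summed to 4.15 to 4.32 CPM in KO NPCs and 4.75 to 4.85 CPM in WT NPCs. The 8 endothelial and mural markers listed summed to 77.6 CPM in KO NPC 3 and to 6.26 to 17.1 CPM elsewhere. The 6 of them that passed the filter did not move together, with log2 fold changes from -1.52 to 4.19. Of these, 4 were above 0 and 2 under it, and without KO NPC 3 2 were above 0 and 4 under it. Log2 fold changes of the members are therefore given with and without KO NPC 3. In such bulk libraries, fewer cells of a type and less RNA per cell cannot be told apart.

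The *Pygo2* locus lies on chromosome 3 at 89430214 to 89435128 of GRCm38, plus strand, and *Pygo1* on chromosome 9 at 72925322 to 72952262, plus strand. Promoter windows of 300 bases, 250 before and 50 after an annotated start, were taken from RefSeq on GRCm38.p6. The first windows of both Pygopus genes are shown because these are the 2 members with KO over WT ratios above 1 in all 3 pairs, and because the *Pygo2* window runs into the gene before it. Capitals mark the bases from the annotated start site on.
*Pygo2*, chr3:89429964-89430263, plus strand: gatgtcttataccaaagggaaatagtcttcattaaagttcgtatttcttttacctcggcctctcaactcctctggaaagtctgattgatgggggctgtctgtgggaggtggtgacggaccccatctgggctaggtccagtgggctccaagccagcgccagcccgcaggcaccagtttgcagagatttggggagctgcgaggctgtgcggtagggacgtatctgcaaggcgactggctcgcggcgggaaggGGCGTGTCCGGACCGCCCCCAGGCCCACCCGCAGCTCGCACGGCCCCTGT
*Pygo1*, chr9:72925395-72925694, plus strand: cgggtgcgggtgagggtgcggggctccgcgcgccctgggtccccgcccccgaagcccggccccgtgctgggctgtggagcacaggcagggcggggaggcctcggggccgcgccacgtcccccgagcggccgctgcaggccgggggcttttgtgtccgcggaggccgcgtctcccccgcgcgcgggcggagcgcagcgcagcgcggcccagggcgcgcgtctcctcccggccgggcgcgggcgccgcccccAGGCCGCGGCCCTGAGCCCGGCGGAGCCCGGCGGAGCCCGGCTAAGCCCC
The first 203 bases of the *Pygo2* window lie inside the locus of *Shc1*, whose 3′ end is 47 bases from the start of *Pygo2* on the same strand. The *Pygo1* window is 84.0% G and C and the *Pygo2* window 60.7%, against a median of 52.7% over all 32851 windows of the table.

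The letters that TCF/LEF factors bind were searched on both strands in 4 forms, the first being CTTTGAA and the others ending differently as CTTTGAT in the second form, CTTTGTA in the third and CTTTGTT in the fourth. None of them occurred in the windows of *Pygo1*, *Pygo2* or *Axin2*. Sites outside the windows were not searched, so a window without a match does not mean a gene without such a site. Over the 9 members with a window, 2 of 17 windows held a match, and 16.9% of all windows did. The matches were CTTTGTT at position -14 of the second *Tcf7l2* start and TACAAAG, the reverse strand of CTTTGTA, at position -147 of the fourth *Lef1* start. *Bcl9l* had no window.

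*Pygo2* was higher in every KO NPC library than in any WT NPC library. It stood at 55.1, 53.7 and 35.9 CPM in KO NPCs 1 to 3, against 16.1, 18.4 and 18.4 CPM in WT NPCs 1 to 3. The lowest KO library was KO NPC 3. The mean was 48.2 ± 10.7 CPM in KO NPCs and 17.6 ± 1.32 CPM in WT NPCs (SD, n = 3 each), a ratio of 2.74 and a log2 fold change of 1.45 (SE 0.21). The counts behind these levels were 4567, 3909 and 2119 in KO NPCs and 1017, 1315 and 1262 in WT NPCs. Between libraries of one number, the KO over WT ratio was 3.42, 2.92 and 1.95. Without KO NPC 3 the log2 fold change was 1.62 (SE 0.11), so the difference was no smaller without the library that stood apart. No stretch of 50 bases of the annotated *Pygo2* transcripts occurred in a transcript of another gene.

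*Pygo1*, the other mammalian Pygopus gene, was uneven among KO NPCs. It stood at 5.41, 40.5 and 103 CPM in KO NPCs 1 to 3, against 4.90, 5.17 and 5.64 CPM in WT NPCs 1 to 3. KO NPC 1 was within the WT range, since it was below WT NPC 3, whereas KO NPC 2 and KO NPC 3 were far above every WT library. The KO over WT ratio was 1.11, 7.84 and 18.3 in the 3 pairs. The mean was 49.6 ± 49.4 CPM in KO NPCs and 5.23 ± 0.374 CPM in WT NPCs (SD, n = 3 each), with a log2 fold change of 3.24 (SE 0.95) that became 2.13 (SE 0.77) without KO NPC 3. Ordered by the SD of log2 CPM among the KO libraries, *Pygo1* was number 310 of 19073 genes, and *Pygo2* number 10201. *Mbp* followed the same order among KO libraries, at 8.42, 52.0 and 518 CPM in KO NPCs and 11.1, 44.9 and 84.5 CPM in WT NPCs, and its part in the *Pygo1* values was not tested.

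**Figure D1:**
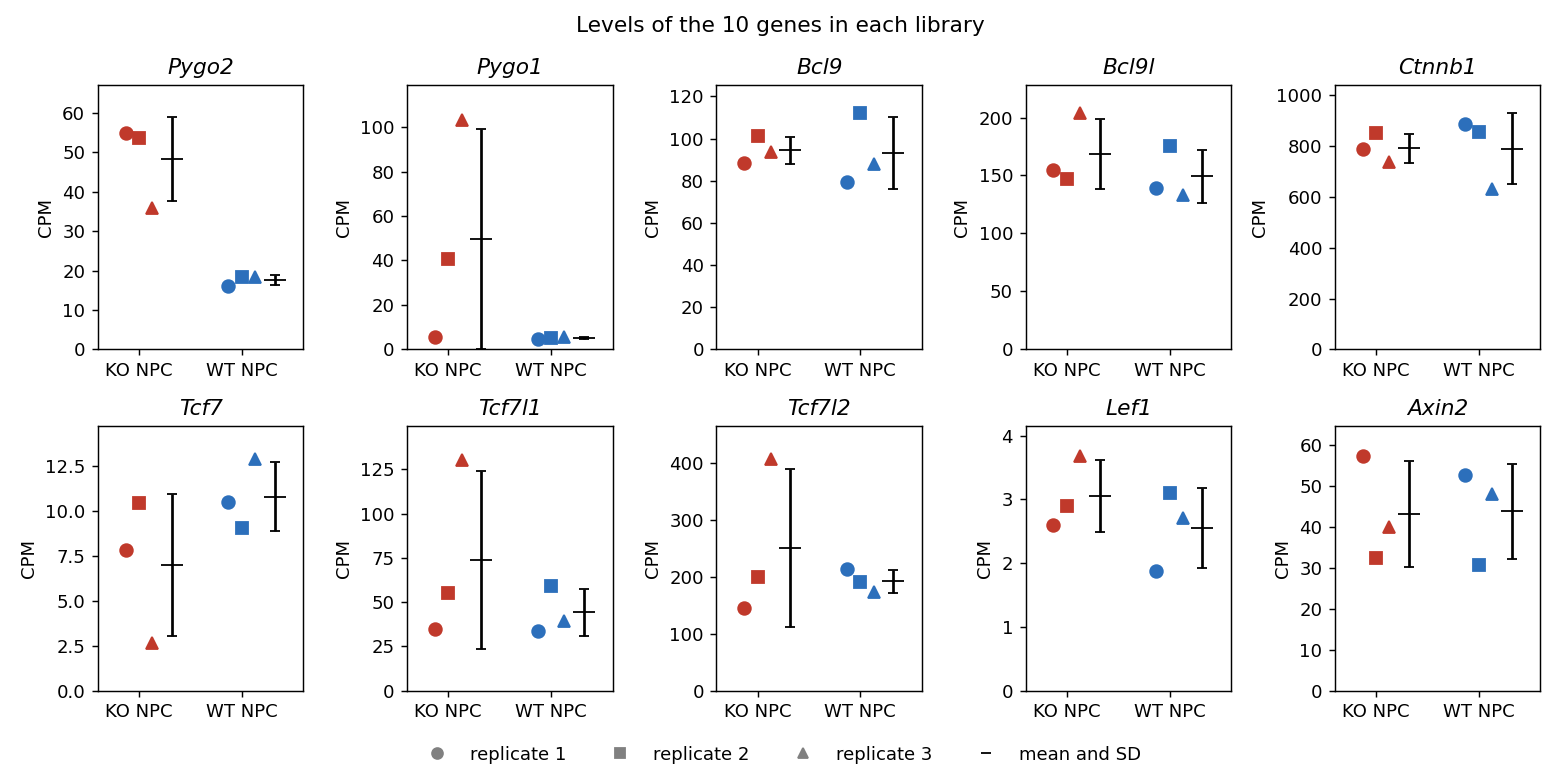
CPM of each of the 10 genes in the 3 KO NPC (left, red) and 3 WT NPC (right, blue) libraries, with the marker shape giving the replicate number and the black bar the mean and SD of the group. Each panel has its own axis from 0. *Pygo2* has its KO libraries at 35.9 to 55.1 CPM, all above the WT libraries at 16.1 to 18.4 CPM, and the KO libraries of *Pygo1* run between 5.41 and 103 CPM.

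The 2 Pygopus genes were compared with each other per kb of the locus length deposited with the counts. For *Pygo2* this length, 4904 bases, covers nearly the whole locus of 4.915 kb, introns included. *Pygo2* made up 94.5, 69.2 and 37.2% of the summed Pygopus level per kb in KO NPCs 1 to 3, against 84.8, 85.8 and 84.7% in WT NPCs 1 to 3. The WT shares were close together, and the KO shares lay on both sides of them. The summed level was 11.9, 15.8 and 19.7 CPM per kb in KO NPCs, against 3.87, 4.37 and 4.43 CPM per kb in WT NPCs. The groups did not overlap in this sum, which follows from *Pygo2*, the gene picked for its difference. Its lowest KO level alone, 7.33 CPM per kb, was above the highest WT sum. In the sum, *Pygo2* was the larger term in KO NPCs 1 and 2 and *Pygo1* in KO NPC 3.

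**Figure D2:**
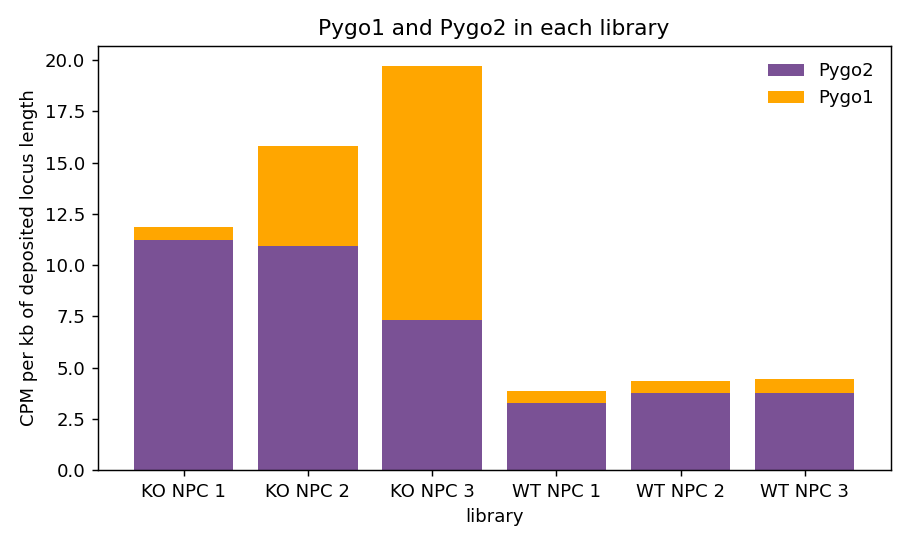
Level of *Pygo2* (purple) and *Pygo1* (orange) in each library, in CPM per kb of deposited locus length and stacked, with KO NPCs on the left and WT NPCs on the right. The stacks reach 11.9 to 19.7 CPM per kb in KO NPCs and 3.87 to 4.43 CPM per kb in WT NPCs, and the orange part is 62.8% of the stack in KO NPC 3.

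The adaptors between beta-catenin and Pygopus overlapped between the genotypes. *Bcl9* stood at 88.5, 101 and 93.5 CPM in KO NPCs, against 79.5, 112 and 87.8 CPM in WT NPCs. Its KO values all lay inside the WT range, and the log2 fold change was 0.02 (SE 0.18), and 0.03 (SE 0.18) without KO NPC 3. *Bcl9l* stood at 155, 147 and 203 CPM in KO NPCs, against 140, 176 and 133 CPM in WT NPCs. The groups overlapped and KO NPC 3 was the highest library, and the log2 fold change was 0.17 (SE 0.20) with it and 0.02 (SE 0.15) without it. The assembled *Bcl9l* locus spans 287.5 kb, against 29.1 kb in GENCODE M21, so it runs over neighbouring genes and its counts are less certain than those of *Bcl9*. *Bcl9l* made up 53.6 to 63.3% of the summed *Bcl9* and *Bcl9l* level per kb in KO NPCs and 54.6 to 58.2% in WT NPCs.

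*Ctnnb1* was the most abundant of the 10 genes per kb. Its locus, merged with the microRNA gene *Mir7090*, stood at 789, 850 and 737 CPM in KO NPCs, against 887, 855 and 629 CPM in WT NPCs. The KO values all lay between the lowest and the highest WT library, and the log2 fold change was 0.00 (SE 0.19), and 0.05 (SE 0.18) without KO NPC 3. Of the 50-base stretches of *Ctnnb1* transcripts, 12.3% also occur in *Ulk4*, a gene whose transcripts overlap it. These levels are of RNA, and beta-catenin is regulated mostly as a protein.

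Among the TCF/LEF genes, KO NPC 3 was the highest library for *Tcf7l1*, *Tcf7l2* and *Lef1* and the lowest for *Tcf7*. It was also the highest for 34.9% and the lowest for 36.8% of all genes tested, so nothing particular to these genes is read from it. *Tcf7l2*, which acts as activator or repressor, stood at 145, 199 and 407 CPM in KO NPCs, against 212, 190 and 173 CPM in WT NPCs. Only KO NPC 3 was above the WT range, and KO NPC 1 was below it. The log2 fold change was 0.38 (SE 0.39) with KO NPC 3 and -0.16 (SE 0.17) without it. *Tcf7l1*, mainly known as a repressor, stood at 34.9, 55.4 and 130 CPM in KO NPCs, against 34.0, 59.0 and 39.6 CPM in WT NPCs. Again KO NPC 3 alone was above the WT range, and the log2 fold change was 0.74 (SE 0.51) with it and 0.03 (SE 0.31) without it.

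*Tcf7*, coding for TCF1, went the other way in that library. It stood at 7.84, 10.4 and 2.65 CPM in KO NPCs, against 10.5, 9.01 and 12.8 CPM in WT NPCs. KO NPC 3 was the lowest of the 6, KO NPC 1 was also below the WT range and KO NPC 2 was inside it. The log2 fold change was -0.63 (SE 0.49) with KO NPC 3 and -0.24 (SE 0.22) without it. *Lef1* was low throughout, at 2.59, 2.90 and 3.68 CPM in KO NPCs, against 1.87, 3.10 and 2.70 CPM in WT NPCs. The groups overlapped, and the log2 fold change was 0.26 (SE 0.32) with KO NPC 3 and 0.10 (SE 0.28) without it. Of the 50-base stretches of *Lef1* transcripts, 13.7% occur in other genes, which at 118 to 222 counts makes its level uncertain. The oligodendrocyte and astrocyte markers given above were also highest in KO NPC 3, and their part in the TCF/LEF values was not tested.

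The 4 TCF/LEF genes summed to 20.0, 29.1 and 59.0 CPM per kb in KO NPCs, against 24.4, 29.2 and 24.1 CPM per kb in WT NPCs. KO NPC 1 was below all WT libraries, KO NPC 2 was inside their range and KO NPC 3 was above all of them. *Tcf7* made up 9.84, 8.96 and 1.12% of this sum in KO NPCs, against 10.8, 7.73 and 13.4% in WT NPCs. *Tcf7l1* and *Tcf7l2* together held most of the sum in every library, with *Tcf7l2* at 41.4 to 44.1% in KO NPCs and 39.6 to 52.9% in WT NPCs.

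*Axin2*, the readout of the pathway among the 10, overlapped between the genotypes. It stood at 57.4, 32.3 and 39.9 CPM in KO NPCs 1 to 3, against 52.8, 30.7 and 48.1 CPM in WT NPCs 1 to 3. The libraries numbered 2 were the lowest of both genotypes, and the KO over WT ratio was 1.09 in the first pair and 0.830 in the third. The log2 fold change was -0.02 (SE 0.30), and 0.03 (SE 0.34) without KO NPC 3.

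All 10 members passed the filter on low counts. In the main fit, edgeR's quasi-likelihood test with Benjamini-Hochberg adjustment, 0 of 10 members passed an adjusted p of 0.05, as did 0% of all 19073 genes tested. At an unadjusted p under 0.05 there were 2 members, *Pygo1* and *Pygo2*, and 308 genes in all, or 1.61%. *Pygo2* was the 1 member called by edgeR's likelihood ratio test, which called 0.0891% of genes, and by DESeq2, which called 0.189%. With replicate pairs in the likelihood ratio test it was again the 1 member called, beside 0.199% of genes, and without KO NPC 3 it was called by the likelihood ratio test (0.346% of genes) and DESeq2 (0.459% of genes). With the *Rn7sk* count as library size, described next, no member was called by the quasi-likelihood test (0.021% of genes) or by the likelihood ratio test with pairs (0.115% of genes). Since *Pygo2* was chosen on this contrast, these calls add nothing to its values. In 1 of 10 members, *Pygo2*, every KO library was above every WT library, and 2.74% of all genes tested had this order. None had the reverse order, which 3.28% of all genes had. The median log2 fold change of the 10 was 0.22, and 0.03 without KO NPC 3, against -0.01 for all genes tested in both fits. KO NPC 3 was the highest library for 5 members and the lowest for 1, against 34.9% and 36.8% of all genes tested.

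The study normalised its counts with *Rn7sk*, a small RNA made by RNA polymerase III, by a ratio of log2 CPM values. That formula was not run here. As an alternative, the *Rn7sk* count itself was taken as the library size, which scales the libraries more strongly than a ratio of log2 values does. *Rn7sk* stood at 13.51, 13.93 and 13.77 log2 CPM in KO NPCs, against 13.66, 13.98 and 12.98 log2 CPM in WT NPCs, with WT NPC 3 the lowest. With *Rn7sk* counts as library sizes, the median log2 fold change of all genes tested moved to -0.26, and those of *Pygo2* and *Pygo1* to 1.20 and 2.90. The values of *Bcl9*, *Bcl9l* and *Ctnnb1* turned to -0.21, -0.03 and -0.19, all of them above the median of all genes on that scale.

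**Figure D3:**
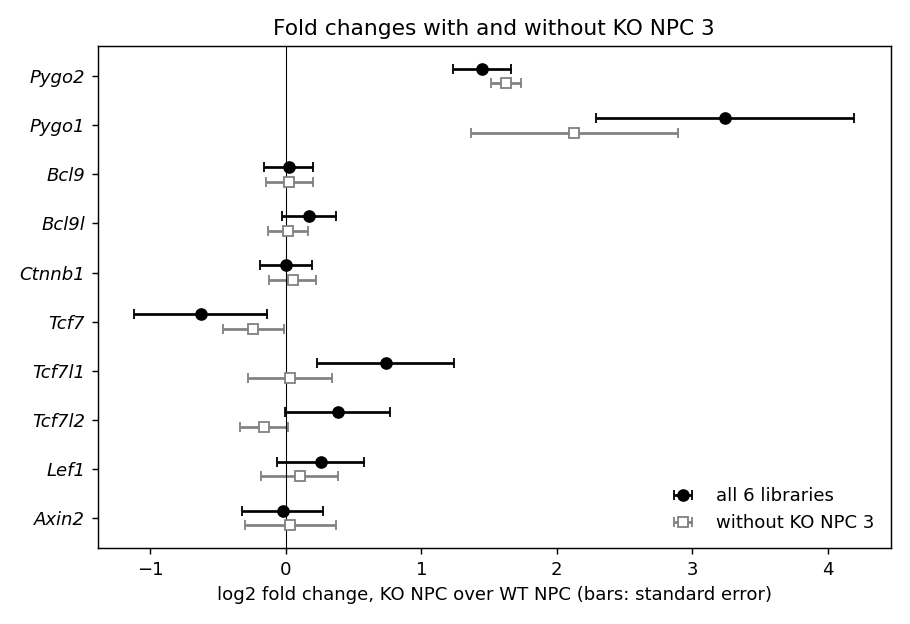
Log2 fold change of KO NPCs over WT NPCs for the 10 genes, with bars of 1 standard error, from all 6 libraries (filled circles) and without KO NPC 3 (open squares). *Pygo2* is at 1.45 and 1.62, *Pygo1* at 3.24 and 2.13, and the other genes lie within -0.24 to 0.10 without that library.

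Per kb of locus length, the mean WT level of the members ran in the order *Ctnnb1*, *Bcl9l*, *Tcf7l2*, *Tcf7l1*, *Bcl9*, *Axin2*, *Pygo2*, *Tcf7*, *Pygo1* and *Lef1*. *Ctnnb1* had 143 CPM per kb, *Bcl9l*, *Tcf7l2*, *Tcf7l1* and *Bcl9* had 14.0, 11.6, 11.3 and 11.0 CPM per kb, and *Axin2* had 7.79 CPM per kb. *Pygo2* had 3.60 CPM per kb, *Tcf7* 2.70, *Pygo1* 0.629 and *Lef1* 0.289 CPM per kb. The WT ranges of neighbours from *Bcl9l* to *Bcl9* overlapped, so that this part of the order is not settled. On these lengths every later neighbour was apart in range, though narrowly for *Axin2*, reaching 9.38, and *Bcl9*, starting at 9.41 CPM per kb. *Pygo2*, at 3.29 to 3.76 CPM per kb in WT NPCs, was above *Tcf7*, at 2.26 to 3.22 CPM per kb. The deposited lengths exceed the number of distinct 50-base stretches of annotated transcripts by unlike amounts. These were 4904 bases against 3675 stretches for *Pygo2* and 3992 against 2575 for *Tcf7*. The order of these genes therefore holds only for the deposited lengths. In KO NPCs *Pygo2* stood at 7.33 to 11.2 CPM per kb, a range that overlapped those of *Axin2* (5.74 to 10.2 CPM per kb), *Tcf7l2* (8.80 to 24.7), *Tcf7l1* (8.90 to 33.2), *Pygo1* (0.651 to 12.4) and *Bcl9*, which started at 10.5 CPM per kb.

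None of the 7 named loci within 50 kb of *Pygo2* had every KO library above every WT library, an order that only 2.74% of all genes tested had. *Shc1*, an adaptor of receptor tyrosine kinases that ends just before *Pygo2*, stood at 20.8, 22.1 and 20.8 CPM in KO NPCs, against 30.6, 22.8 and 25.0 CPM in WT NPCs. All 3 KO libraries were below the WT libraries, as in 3.28% of all genes tested, with a log2 fold change of -0.30 (SE 0.17). *Pbxip1*, a PBX-binding protein gene that starts 1577 bases after *Pygo2*, stood at 186, 103 and 103 CPM in KO NPCs, against 209, 149 and 194 CPM in WT NPCs, with overlapping groups and a log2 fold change of -0.50 (SE 0.29). The assembled *Pbxip1* locus runs over that of *Pmvk* on the same strand, so reads of these genes are less certainly assigned. The other 5 were *Zbtb7b*, *Gm15417*, the merged *Lenep* and *Flad1*, *Cks1b* and *Pmvk*. Their log2 fold changes were -0.39, -0.71, 0.34, -0.19 and -0.13, each with overlapping groups. Without KO NPC 3 they were -0.09, -0.39, -0.06, 0.30 and -0.04, so that the merged *Lenep* and *Flad1* locus and *Cks1b* turned in direction. *Cks1b*, a cell cycle subunit gene, was at 8.31 CPM in KO NPC 3 and at 44.2 to 65.8 CPM in the other 5 libraries.

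**Figure D4:**
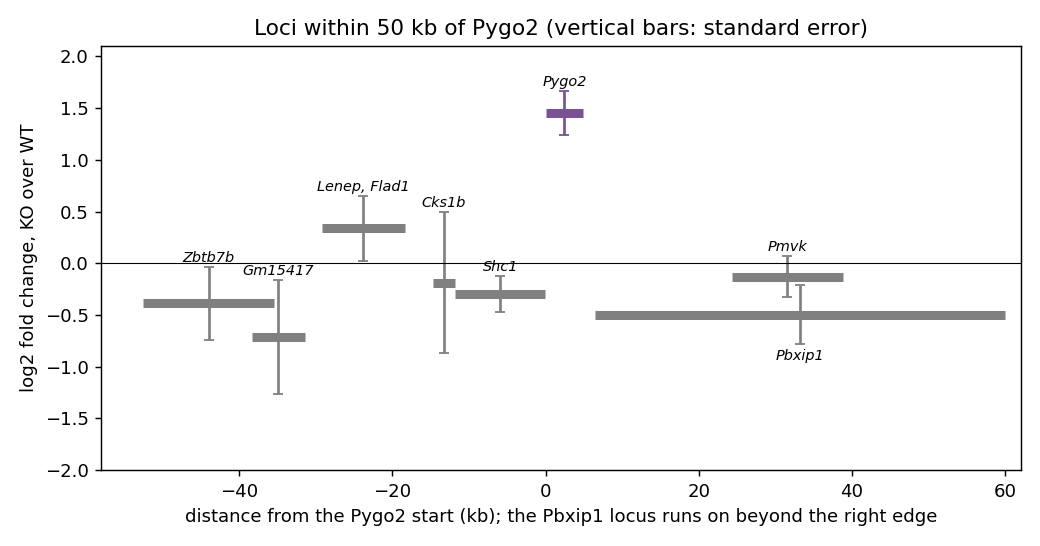
Log2 fold change of KO NPCs over WT NPCs (vertical axis) of each named locus within 50 kb, drawn as a bar over its distance in kb from the *Pygo2* start, with vertical bars of 1 standard error. *Pygo2* is at 1.45, and the neighbours lie between -0.71 and 0.34.

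The 5 genes whose log2 CPM followed *Pygo2* most closely over the 6 libraries were *Gm10167*, *D3Ertd254e*, *Pank2* (merged with *Gm14233*), *Ncoa5* and *Gm5464*. Their Pearson r was 0.983, 0.978, 0.974, 0.970 and 0.960, a description over 6 libraries in which the genotypes differ. *Gm10167* stood at 23.7, 21.8 and 15.4 CPM in KO NPCs, against 0.935, 1.62 and 1.26 CPM in WT NPCs. *Pank2*, coding for a pantothenate kinase, stood at 52.8, 54.6 and 46.9 CPM in KO NPCs, against 13.3, 16.2 and 19.7 CPM in WT NPCs. Those 2 had log2 fold changes of 3.99 and 1.65, whereas *D3Ertd254e* and *Ncoa5* differed by 0.14 and 0.18. Of all genes tested, 29 had r above 0.9 with *Pygo2*, none of them a member. The members' own r with *Pygo2* was 0.52 for *Pygo1*, 0.37 for *Lef1* and between -0.32 and 0.23 for the other 7, over 6 libraries that share the genotype split.

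The rest of the pathway was read from 8 lists of genes. In none of them did a gene pass the adjusted threshold by the quasi-likelihood test, the likelihood ratio test, DESeq2 or the likelihood ratio test with replicate pairs. Of the Wnt ligands, 9 of 19 were measured, 3 of them above 0 in log2 fold change and 6 under it, and the list's median was -0.28. *Wnt7b*, a ligand of neural progenitors, stood at 205, 93.8 and 153 CPM in KO NPCs, against 180, 147 and 222 CPM in WT NPCs, and *Wnt5a*, a mostly non-canonical ligand, at 107, 39.1 and 62.5 CPM in KO NPCs, against 135, 52.3 and 84.4 CPM in WT NPCs. *Wnt7a* was lowest in KO NPC 3, at 7.46 CPM, and at 17.3 to 49.7 CPM elsewhere. Of the 6 secretion factors and R-spondins, 4 were measured with a median of 0.30, which was 0.03 without KO NPC 3. *Wls*, the carrier of Wnt ligands, had a log2 fold change of -0.10 (SE 0.35). *Porcn*, which acylates them, had 0.33 (SE 0.37), which turned to -0.16 without KO NPC 3, and *Rspo3*, at under 0.5 CPM, had 0.86 (SE 0.54), which became 0.42.

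All 15 Frizzled, LRP and LGR receptors were measured, 6 above 0 and 9 under it, and their median was -0.03. The most abundant, *Fzd3*, stood at 614, 548 and 766 CPM in KO NPCs, against 663, 573 and 593 CPM in WT NPCs, with overlapping groups. *Lrp6* had a log2 fold change of 0.07 (SE 0.20) and *Fzd2* of 0.26 (SE 0.22). Named after their values were seen, *Fzd8* had every KO library above every WT library, with a log2 fold change of 0.59 (SE 0.27) that was 0.26 without KO NPC 3, and *Lgr6*, at under 0.5 CPM, the reverse. Of all genes tested, 2.74% had the order of *Fzd8* and 3.28% that of *Lgr6*.

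All 14 Dishevelled and destruction complex genes were measured, 8 above 0 and 6 under it, and their median was 0.01. *Apc*, the scaffold of the destruction complex, stood at 715, 542 and 384 CPM in KO NPCs, against 882, 921 and 776 CPM in WT NPCs. All KO libraries were below all WT libraries, with a log2 fold change of -0.65 (SE 0.25), and -0.45 without KO NPC 3. *Csnk1a1*, the kinase that primes beta-catenin for degradation, stood at 306, 278 and 388 CPM in KO NPCs, against 447, 408 and 454 CPM in WT NPCs, in the same order and with a log2 fold change of -0.43 (SE 0.18). Neither passed the adjusted threshold, and 3.28% of all genes tested had KO libraries all below WT libraries. *Dvl3*, a Dishevelled gene, had a log2 fold change of -0.02 (SE 0.18).

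Of the 18 secreted and membrane inhibitors, 13 were measured, 5 above 0 and 8 under it, and their median was -0.25, which turned to 0.30 without WT NPC 1. *Apcdd1* stood at 60.4, 30.0 and 172 CPM in KO NPCs, against 59.3, 56.2 and 53.5 CPM in WT NPCs, so that KO NPC 3 was far above the WT range, KO NPC 1 just above it and KO NPC 2 below it. *Sfrp1*, a secreted Wnt antagonist, had a log2 fold change of 0.88 (SE 0.72), which was 0.45 without KO NPC 3, and *Znrf3*, an E3 ligase that removes Frizzled, of -0.91 (SE 0.40), both with overlapping groups. *Kremen1*, a DKK co-receptor named after its values were seen, stood at 26.2, 26.9 and 23.4 CPM in KO NPCs, against 51.7, 36.3 and 33.4 CPM in WT NPCs. Its KO libraries were all below its WT libraries, as in 3.28% of all genes tested, and it did not pass the adjusted threshold.

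Of the 11 nuclear corepressors 10 were measured, 4 above 0 and 6 under it, and their median was -0.04. *Tle4*, a Groucho corepressor of TCF factors, stood at 302, 297 and 328 CPM in KO NPCs, against 300, 282 and 228 CPM in WT NPCs. *Ctbp1* and *Ctbp2* had log2 fold changes of -0.00 (SE 0.20) and 0.16 (SE 0.22), which became 0.16 and 0.03 without KO NPC 3. All 19 cofactors of Pygopus and beta-catenin were measured, 11 above 0 and 8 under it, and their median was 0.03. The chromatin remodeller *Smarca4*, the Mediator subunit *Med12* and the acetyltransferase *Crebbp* had log2 fold changes of -0.19, 0.14 and 0.13, each with overlapping groups, and of -0.04, 0.11 and 0.25 without KO NPC 3.

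Of the 17 Wnt target genes, which include *Axin2*, *Lef1* and *Tcf7*, 15 were measured, 5 above 0 and 10 under it. Their median was -0.25, and leaving out KO NPC 3 made it -0.09 and leaving out WT NPC 1 made it 0.24. The list shares *Apcdd1*, *Dkk1*, *Notum*, *Rnf43* and *Znrf3* with the inhibitors and *Lgr5* with the receptors. Its median is therefore not independent of theirs. *Ccnd1*, coding for cyclin D1, stood at 1218, 1024 and 16.9 CPM in KO NPCs, against 1215, 891 and 1536 CPM in WT NPCs. KO NPCs 1 and 2 lay inside the WT range and KO NPC 3 far below it. *Cd44* had the same form, at 101, 86.4 and 7.45 CPM in KO NPCs, against 84.9, 84.8 and 129 CPM in WT NPCs. *Tnfrsf19* was also lowest in KO NPC 3, at 38.8 CPM, and at 63.4 to 125 CPM elsewhere. All 17 genes summed to 1723, 1443 and 349 CPM in KO NPCs, against 1721, 1333 and 1962 CPM in WT NPCs, a sum in which *Ccnd1* is the largest term outside KO NPC 3.

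**Figure D5:**
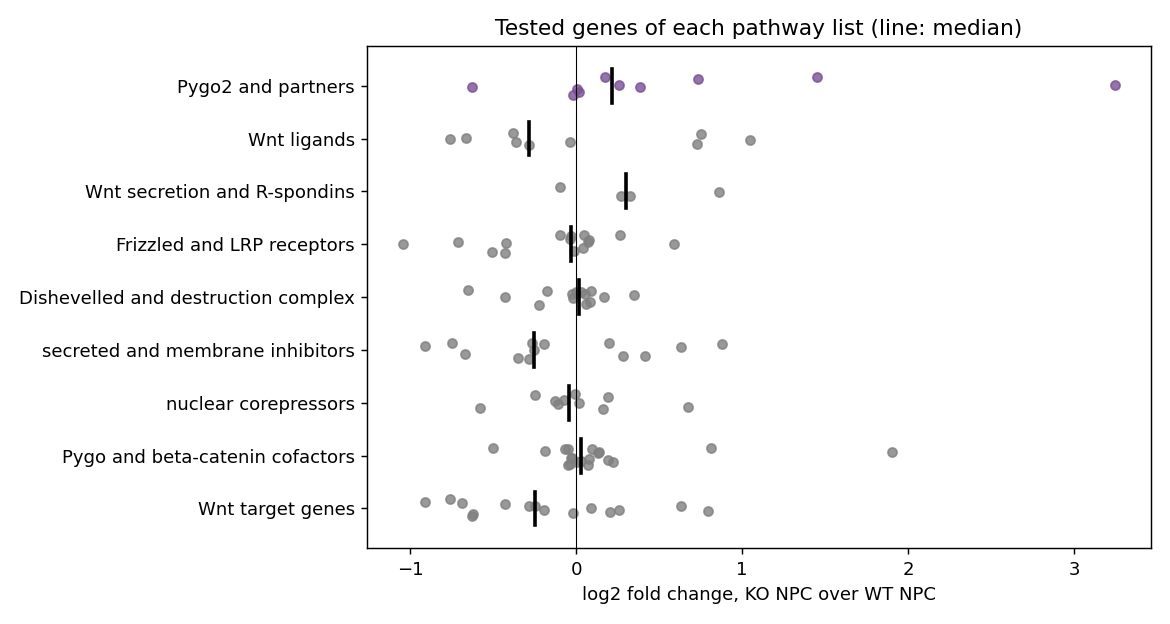
Log2 fold change of KO NPCs over WT NPCs for each tested gene (points, spread vertically for legibility) of the 10 genes (top, purple) and of 8 pathway lists, with the median of each as a black line. The list medians lie between -0.28 and 0.30, and the 2 rightmost purple points are *Pygo2* at 1.45 and *Pygo1* at 3.24.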

How the data were processed

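RNA was sequenced from 3 KO and 3 WT NPC cultures. Libraries were rRNA-depleted, stranded and paired-end. The authors trimmed reads with Trimmomatic and aligned them with STAR to GRCm38, and their notes also name Picard, StringTie and edgeR. Versions, the read counter and its use of strand are not given in the sources used here. The deposited counts are whole numbers per assembled locus, neither scaled nor filtered. Of the authors' log2 values, the log2 CPM of each library matched the counts when checked; these, the *Rn7sk*-normalised values and the group means were left aside. The locus length deposited by the authors, in bases, was used for levels per kb. Loci that name no gene (1.31 to 4.89% of counts per library) were left out, and loci of one name were summed.

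Genes were kept by filterByExpr (minimum count 10, minimum total 15) and fitted with edgeR 4.0.16 in R 4.3.3 (TMM, quasi-likelihood test, Benjamini-Hochberg over 19073 genes, threshold 0.05, genotype only). DESeq2 1.42.0 was an alternative, as were other scalings, no filter, the likelihood ratio test, the replicate block and libraries left out. Log CPM used a prior count of 2. SE is the log2 fold change over the root of the F statistic. The code was tested on simulated data. The biological coefficient of variation was 0.475. The study names pairs, and same-numbered libraries deviated together (r = 0.413, 0.169 and 0.195, against at most 0.0579 for other pairs), so the numbers were taken to pair the libraries. Replicate libraries differed by more than sampling noise. As nothing names separate animals, p-values measure the spread between these cultures.

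Coordinates are 1-based GRCm38, and 94.9% of single-gene loci had the start and end of GENCODE M21. Promoter windows came from RefSeq. The members and lists were chosen with earlier results of these data known. Genes named besides the members are the 3 most abundant measured genes of each list, loci within 50 kb of *Pygo2*, the 5 genes most like it by Pearson r, *Armc5*, *Rn7sk*, *Mbp* and *Gfap*, unless said otherwise.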

Additional observations from a re-analysis of the deposited data

How the results depend on the processing

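No gene and no member passed the adjusted threshold by edgeR's quasi-likelihood test with any 1 library left out (0 genes and 0 members each time), with both libraries numbered 3 left out, on total counts, or with the replicate block (0 genes, 0 members). Genes past the threshold numbered 4 with *Rn7sk* counts as library sizes (the *Rn7sk* scale), 5 with no filter, 17 by the likelihood ratio test, 35 by DESeq2, 38 when that likelihood ratio test had the replicate block and 22 when the *Rn7sk* scale was added to it. Without KO NPC 3, in alternatives chosen after seeing the data, 68 genes passed by the likelihood ratio test and 90 by DESeq2. Among members, 1 (*Pygo2*) passed by the likelihood ratio test, 1 by DESeq2, 1 when that test had the block, and 1 by each of the tests without KO NPC 3; with *Rn7sk* counts as library sizes and the block it was 0. The block changed no call by the quasi-likelihood test and no member call by the likelihood ratio test.

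Of 170 values of single members under the alternatives, 4 moved by more than the spread between replicates. That spread includes KO NPC 3, so it is wide for genes uneven there, and few moves do not mean steady values. *Tcf7l1*, with a spread of 0.74, went from 0.74 to 0.03 without KO NPC 3 and was not counted as moved. *Pygo2* stayed between 1.20 and 1.65 and *Pygo1* between 2.13 and 3.78 in log2 fold change. On the *Rn7sk* scale, where the median of all genes moved to the value given above and single genes moved by other amounts, the list medians were -0.55 for Wnt ligands, -0.27 for receptors, -0.22 for Dishevelled and destruction complex, -0.30 for corepressors and -0.23 for cofactors, and with the block and the likelihood ratio test on that scale -0.54, -0.26, -0.19, -0.24 and -0.17. The median of Wnt ligands was -0.093 with no filter, and that of inhibitors -0.035 with the block and -0.037 when the likelihood ratio test was added. With 1 library left out, the medians ran between -0.29 and -0.00070 (without KO NPC 2) for ligands, 0.027 and 0.65 for secretion factors, -0.48 and 0.30 for inhibitors (0.30 without WT NPC 1) and -0.45 and 0.24 for target genes (0.24 without WT NPC 1). The cause of these shifts was not tested.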
